A study of Mus musculus with 64 samples.

Results

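The metabotropic glutamate (mGlu) receptor genes Grm2, Grm3, Grm4, Grm5, Grm7 and Grm8 were followed across all 8 groups of a study of psilocybin in the mouse brain. They were taken by symbol from the 55401 genes of the counts table, all 6 were found, and all 6 passed the filter on low counts with 18971 genes in total. The mice were C57BL/6J males aged 10 weeks, fed chow, group-housed and given sham saline injections on the 3 days before the experiment, so the controls share that handling. Each received 1 intraperitoneal injection of 3 mg/kg psilocybin, a serotonergic psychedelic, or of isotonic saline (vehicle), and hypothalamus and frontal cortex, called prefrontal cortex (PFC) here, were dissected 3 h or 4 weeks later. Each of the 8 groups of region, treatment and time held 8 samples, and each of the 32 mice gave both regions. Mice killed at 4 weeks were also 4 weeks older than those killed at 3 h, so time after injection and age cannot be told apart.

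The mGlu receptors are G protein-coupled receptors for glutamate, the main excitatory transmitter of the brain, and they tune synapses rather than carry the fast signal. Group I receptors, among them mGlu5, sit mainly on the postsynaptic side and couple through Gq to phospholipase C, inositol trisphosphate and calcium. Group II (mGlu2 and mGlu3) and group III (mGlu4, mGlu6, mGlu7 and mGlu8) receptors couple through Gi/o to lower cyclic AMP, and most of them act on presynaptic terminals to limit transmitter release. In the cortex, mGlu2 has drawn interest beside psychedelics because it can form complexes with the serotonin 2A receptor, the target through which psilocin, the active product of psilocybin, produces its psychedelic effects. A transcript level says nothing of receptor protein or signalling.

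Of the 64 libraries, 62 had at least 1000000 counted reads and were used, with 8061033 to 70361839 counts each (median 18287978.5). The 2 left out, psilocybin replicate 3 of the PFC at 4 weeks and vehicle replicate 2 of the hypothalamus at 3 h, held 200066 and 211111 counts. This left 31 libraries in each region and 30 mice with both. Cortical excitatory neuron markers summed to 1522 to 2138 counts per 1000000 (CPM) in the PFC and 142 to 289 in the hypothalamus, and hypothalamic markers to 11.9 to 42.4 CPM and 757 to 3121 CPM, so every library carried the markers of its label. The libraries that stood apart most by their quality weights in the limma-voom fit were psilocybin replicate 5 of the hypothalamus at 4 weeks (weight 0.0276) and psilocybin replicate 7 of the PFC at 3 h (weight 0.12). Results that rest on them are given with and without them. Extraction pools differed between the regions, so region and pool cannot be told apart. Unless another tool is named, adjusted p-values are those of the quasi-likelihood test in edgeR, corrected by Benjamini and Hochberg's method over all 18971 genes, a gene was called at an adjusted p under 0.05, and fold changes are log2.

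In genome build GRCm38 the 6 genes range from compact to very long. Grm2 (ENSMUSG00000023192.12) spans 13.0 kb of chromosome 9 (106643095 to 106656080, minus strand) and Grm4 (ENSMUSG00000063239.17) 99.0 kb of chromosome 17 (27422387 to 27521403, minus strand). Grm3 (ENSMUSG00000003974.6) covers 239.6 kb of chromosome 5 (9485541 to 9725170, minus strand) and Grm5 (ENSMUSG00000049583.15) 550.7 kb of chromosome 7 (87584168 to 88134907, plus strand). The longest are Grm8 (ENSMUSG00000024211.15), with 860.1 kb of chromosome 6 (27275119 to 28135178, minus strand), and Grm7 (ENSMUSG00000056755.13), with 920.5 kb of the same chromosome (110645581 to 111566067, plus strand). Counts cover annotated exons, which sum to between 3049 bases in Grm3 and 10247 bases in Grm5. The exons of Grm4 are richest in G and C (61.7%) and those of Grm8 poorest (41.9%). Each gene overlaps at least 1 predicted gene or small RNA gene in the annotation, on the same strand in 5 of the 6, and how reads in such overlaps were assigned was not tested.

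Levels were compared between genes only per length, as transcripts per 1000000 transcripts (TPM). In the PFC the order by median TPM was Grm3 (108.9), Grm5 (65.4), Grm2 (36.2), Grm7 (32.4), Grm4 (10.4) and Grm8 (5.84). Grm3, the group II receptor that is made by astrocytes as well as neurons, therefore led in this tissue and stood at the 92.1 percentile of all tested genes, with Grm8 at the 38.5 percentile. Grm2 and Grm7 were the PFC neighbours that did not separate over all 31 libraries: Grm2 was higher in 19 of 31 libraries, by a mean of 0.13 (SD 0.36, log2), with an adjusted p of 0.0681 in a two-sided permutation test of the paired differences over 10 neighbour pairs. In the 16 vehicle libraries alone this pair did separate (mean 0.22, adjusted permutation p = 0.0124). The other 4 steps in the PFC reached an adjusted p of 1.43e-05, where the raw p of 1e-05 is the smallest that 100000 permutations can give, and each held in at least 29 of 31 libraries.

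In the hypothalamus the order by median TPM was Grm5 (52.0), Grm3 (47.9), Grm7 (41.8), Grm4 (27.8), Grm2 (25.5) and Grm8 (6.26). Grm5 and Grm3 were the neighbours that did not separate here, with Grm5 higher in 18 of 31 libraries (permutation test, adjusted p = 0.119). Grm4 exceeded Grm2 in 25 of 31 libraries (permutation test, adjusted p = 0.00499), and the other 3 steps again reached 1.43e-05. The order thus ran from 108.9 down to 5.84 TPM in the PFC and over a narrower span, 52.0 to 6.26 TPM, in the hypothalamus, with Grm8 last in both.

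**Figure D1:**
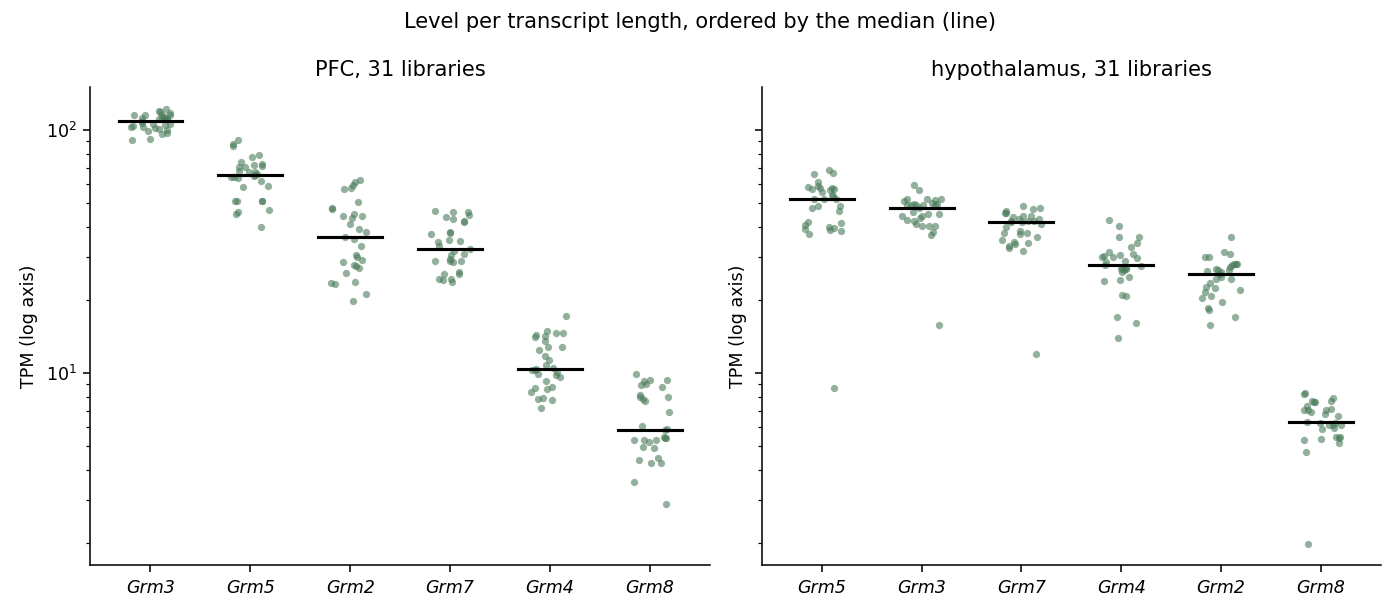
TPM (log axis) of each gene in the 31 PFC libraries (left) and the 31 hypothalamus libraries (right), with genes ordered by their median (black line). Grm3 leads at a median of 108.9 TPM in the PFC, Grm5 at 52.0 TPM in the hypothalamus, and Grm8 is lowest in both panels at 5.84 and 6.26 TPM.

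Between the regions, 4 of the 6 receptor transcripts were higher in the PFC (Grm2, Grm3, Grm5 and Grm8), 1 was lower (Grm4) and 1, Grm7, was not called. This is 5 of 6 genes beside 76.2% of all tested genes called, a share too high for the count to set these genes apart. In bulk tissue, a difference in the number of cells that make a transcript and a difference in transcript per cell cannot be told apart.

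Grm3 differed most. It lay between 80.5 and 113 CPM in the PFC (median 94.8) and between 19.2 and 46.0 CPM in the hypothalamus (median 35.9), so that the regions did not overlap. The fold was 1.42 (SE 0.0439, adjusted p = 2.5e-37), with means of 95.0 ± 8.44 and 35.4 ± 4.88 CPM (SD, n = 31 each). Within mice, the PFC was higher in 30 of 30, with a median ratio of 2.68, and the regions stayed apart in each of the 4 conditions of treatment and time.

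Grm2, a group II receptor of nerve terminals and the closest relative of Grm3, ranged from 30.6 to 79.8 CPM in the PFC (median 52.6) and from 20.5 to 43.9 CPM in the hypothalamus (median 31.5). The ranges overlapped, and the PFC exceeded the hypothalamus in 28 of 30 mice, with a median ratio of 1.68. The fold of 0.77 (SE 0.0751, adjusted p = 4.57e-14) was 0.99 among cages 1 to 4 and 0.53 among cages 5 to 8, which were extracted in different pools. Grm2 was also the most variable of the 6 in the PFC, with a coefficient of variation of 27.6%, closely followed by Grm8 (26.7%), against 8.89% for Grm3.

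The reference sequence just upstream of the RefSeq start of this pair is shown because both genes of group II were higher in the PFC and yet they had the largest and the smallest spread there. Each line gives 250 bases, 5′ to 3′ on the gene's own strand in GRCm38.p6 from RefSeq, with the GC box GGGCGG in capitals.
Grm2, chr9:106656110-106656359, minus strand: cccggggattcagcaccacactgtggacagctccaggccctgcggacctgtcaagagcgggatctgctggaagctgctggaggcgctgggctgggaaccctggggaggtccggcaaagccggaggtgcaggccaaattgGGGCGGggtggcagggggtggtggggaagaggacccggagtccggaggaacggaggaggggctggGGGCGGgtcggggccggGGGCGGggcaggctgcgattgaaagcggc
Grm3, chr5:9725353-9725602, minus strand: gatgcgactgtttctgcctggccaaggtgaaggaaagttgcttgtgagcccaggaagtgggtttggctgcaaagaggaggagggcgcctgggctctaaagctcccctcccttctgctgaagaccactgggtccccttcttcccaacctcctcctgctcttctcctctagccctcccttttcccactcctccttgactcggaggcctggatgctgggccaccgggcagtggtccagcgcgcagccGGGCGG
The Grm2 stretch holds 3 GC boxes, 71.2% G and C and 16 CG pairs. The Grm3 stretch holds 1 GC box at its very end, 62.4% G and C and 8 CG pairs. Over 32851 RefSeq promoters of the same length, 32.7% held GGGCGG or its reverse complement CCGCCC, the median G and C content was 52.4% and the median number of CG pairs was 6. Of the other members, Grm7 and Grm8 had an entry, with 1 GC box each. Their G and C content was 65.2% and 68.4%, with 9 and 29 CG pairs. These letters are a description, and no binding was measured.

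Grm4 and Grm5 moved in opposite directions between the regions. Grm4, a group III receptor known best from cerebellar and thalamic terminals, lay between 12.8 and 29.4 CPM in the PFC (median 17.9) and between 20.3 and 64.1 CPM in the hypothalamus (median 41.9). The fold was -1.17 (SE 0.0744, adjusted p = 1.03e-21), and the PFC was the higher region in 1 of 30 mice, with a median ratio of 0.40. The regions overlapped in the 2 psilocybin conditions and not in the 2 vehicle conditions. Each overlap rested on 1 hypothalamus library, replicate 2 at 3 h with 20.3 CPM (next lowest 41.6, highest PFC value 21.8) and replicate 1 at 4 weeks with 23.6 CPM (next lowest 33.99, highest PFC value 24.1).

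Grm5, the main group I receptor of the forebrain, ranged from 118 to 258 CPM in the PFC (median 194) and from 35.6 to 171 CPM in the hypothalamus (median 131). The value of 35.6 CPM belonged to psilocybin replicate 5 at 4 weeks, and every other hypothalamus library had at least 101 CPM. The fold of 0.58 (SE 0.0782, adjusted p = 1.77e-09) was 0.55 without that library, and the PFC was higher in 29 of 30 mice.

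Grm7 and Grm8, both group III receptors of nerve terminals, differed least. Grm7, the most widely expressed of that group, lay between 41.7 and 74.3 CPM in the PFC (median 55.1) and between 28.0 and 68.4 CPM in the hypothalamus (median 59.6), a fold of -0.04 with a 95% interval of -0.14 to 0.05. It was called by limma-voom alone, at -0.07 (adjusted p = 0.0406), a rule under which 81.5% of all genes were called. Grm8 ranged from 8.25 to 26.7 CPM in the PFC (median 16.8) and from 7.85 to 19.5 CPM in the hypothalamus (median 16.4). The ranges overlapped and that of the PFC reached further up, the PFC was higher in 21 of 30 mice and the fold was 0.17 (SE 0.0663, adjusted p = 0.0154). That call was lost among cages 5 to 8 (0.04, adjusted p = 0.782, beside 0.28 and adjusted p = 0.00139 among cages 1 to 4), with DESeq2 (0.13, adjusted p = 0.0585) and without vehicle replicate 3 of the PFC at 4 weeks (0.14, adjusted p = 0.0566). Grm6, the receptor of retinal bipolar cells, had 0 to 3 counts in any library and was not tested.

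**Figure D2:**
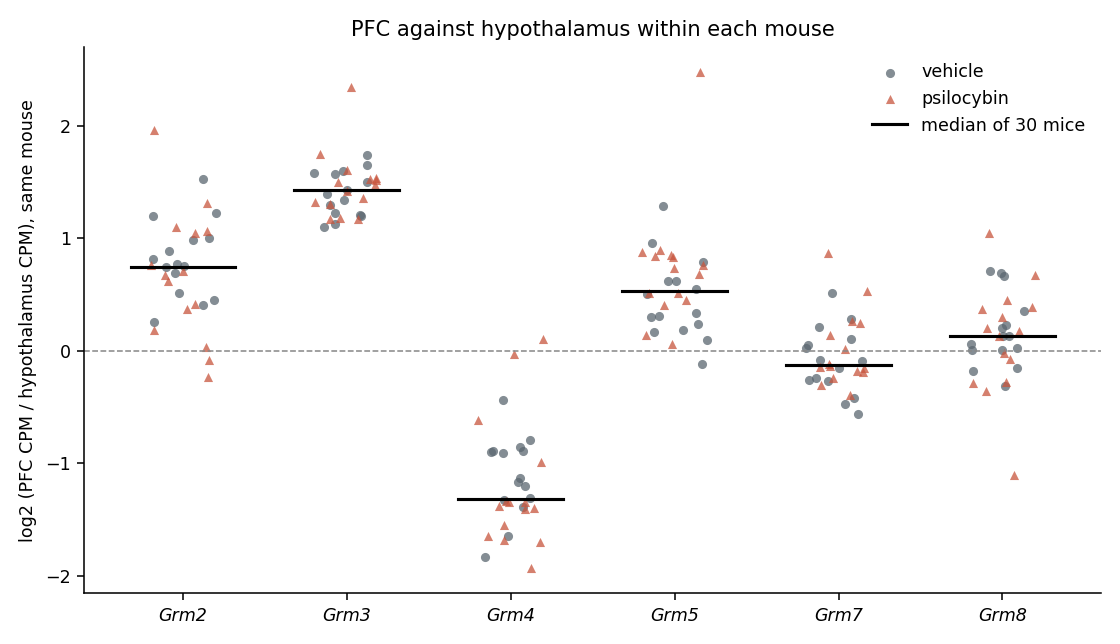
The log2 ratio of PFC to hypothalamus CPM for each gene in the 30 mice with both regions, vehicle as circles and psilocybin as triangles, with the median as a black line and equality as a dashed line. All 30 mice lie above equality for Grm3 and 29 of 30 lie below it for Grm4, while Grm7 and Grm8 straddle it.

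The partners of the receptors were examined in lists drawn up with earlier results of these data known. Over the 6 lists 64 of 70 partner genes (91.4%) were called, 47 higher and 17 lower in the PFC, beside the 76.2% of all genes. Of 13 genes of the Gq route from group I receptors, 10 were higher in the PFC, 2 were lower and 1 was not called, with a median fold of 1.01 beside 0.02 over all genes. Among them were Itpr1, the calcium release channel opened by inositol trisphosphate (2.46), Prkcb, a calcium-dependent protein kinase C (2.10), and Dgkz, which removes diacylglycerol (2.59). Of 8 genes of the Homer and Shank scaffold that ties group I receptors to the postsynaptic density, 7 were higher and 0 lower (median 1.28), with Dlgap1 at 2.08, Dlg4 (PSD-95) at 1.16 and Shank2 at 1.53. Plcb3 and Homer3 were the members not called.

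Of 16 genes of the Gi/o route, 9 were higher in the PFC and 6 lower (median 0.14). Its adenylyl cyclases pointed both ways, with Adcy1 at 2.58, Adcy2 at 1.06 and Adcy8 at -1.37. Of the 8 receptor-binding partners in the table, 5 were higher and 1 lower (median 0.15), among them Elfn2, which binds group III receptors across the synapse, at 0.37, and Necab2, which binds mGlu5, at -1.02. The kinases, arrestins and regulators of G protein signalling that end receptor activity counted 8 higher and 3 lower of 12 (median 0.39), with Rgs14 at 2.46 and Rgs4 at 1.68. Glutamate release, uptake and synthesis counted 8 higher and 5 lower of 13 (median 0.41), led by the vesicular transporters, with Slc17a7 at 5.08 and Slc17a6 at -4.32, beside the uptake carrier Slc1a2 at 1.35.

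The next question was whether psilocybin changed the receptor transcripts. None of the 6 was called in any of the 4 comparisons of psilocybin with vehicle. The background was as low: 0.0105% of all tested genes were called in the PFC at 3 h and 0.0% in the PFC at 4 weeks, in the hypothalamus at 3 h and in the hypothalamus at 4 weeks. At an unadjusted p under 0.05 the members counted 0 in each comparison with edgeR, and DESeq2 and limma-voom called 0 of the 6 as well, although limma-voom called 6.49% of all genes in the PFC at 3 h. Over all genes, 1371, 456, 337 and 1823 had an unadjusted p under 0.05 in these 4 comparisons, and DESeq2 called 9, 19, 0 and 13.

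Grm2 in the PFC at 3 h came nearest to a difference. It lay between 35.7 and 77.4 CPM after vehicle (median 53.6) and between 31.6 and 62.7 CPM after psilocybin (median 41.7). The groups overlapped over most of their range. The fold was -0.28 (SE 0.146, 95% interval -0.57 to 0.01, adjusted p = 0.706). With limma-voom, after the authors' method, the fold was -0.37 (adjusted p = 0.102). That was the lowest adjusted p of any member over the alternatives of this comparison. The highest psilocybin value, 62.7 CPM, was that of replicate 7, the PFC library with the lowest quality weight, and without it the fold was -0.41 (adjusted p = 0.18). At 4 weeks Grm2 lay between 36.3 and 77.4 CPM after vehicle (median 59.9) and between 30.6 and 79.8 CPM after psilocybin (median 59.7), with a fold of -0.06 (95% interval -0.36 to 0.23).

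In the hypothalamus Grm2 lay between 24.2 and 38.9 CPM after vehicle and between 24.4 and 43.9 CPM after psilocybin at 3 h, a fold of 0.13 (95% interval -0.17 to 0.43). At 4 weeks it lay between 25.6 and 36.4 CPM after vehicle and between 20.5 and 32.6 CPM after psilocybin, a fold of -0.17 (95% interval -0.46 to 0.12). The groups overlapped at both times. Htr2a, which encodes the serotonin 2A receptor, was read beside Grm2 for comparison. It was higher in the PFC than in the hypothalamus (2.01, adjusted p = 2.41e-30) and was not called after psilocybin, with folds of 0.15 and -0.01 in the PFC and -0.15 and -0.02 in the hypothalamus at 3 h and 4 weeks.

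Grm3, with the smallest standard errors, had the tightest bounds. Its PFC values lay between 87.2 and 105 CPM after vehicle (median 96.1) and between 82.3 and 113 CPM after psilocybin (median 93.3) at 3 h, and between 82.8 and 111 CPM and between 80.5 and 103 CPM at 4 weeks. The folds were -0.06 (95% interval -0.23 to 0.10) at 3 h and -0.04 (95% interval -0.21 to 0.13) at 4 weeks. The groups overlapped at both times. In the hypothalamus the folds of Grm3 were -0.12 (95% interval -0.29 to 0.06) at 3 h and -0.13 (95% interval -0.30 to 0.04) at 4 weeks.

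Grm5 in the PFC lay between 131 and 258 CPM after vehicle (median 168) and between 118 and 224 CPM after psilocybin (median 202) at 3 h, a fold of 0.13 (95% interval -0.17 to 0.43). At 4 weeks it lay between 152 and 256 CPM after vehicle (median 188) and between 143 and 241 CPM after psilocybin (median 198), a fold of 0.09 (95% interval -0.22 to 0.40). The groups overlapped at both times. The lowest PFC value at 3 h, 118 CPM, was again that of psilocybin replicate 7, and the fold without it was 0.20 (adjusted p = 0.592). Leaving out vehicle replicate 5 gave 0.25 (adjusted p = 0.587), and vehicle replicates 4 and 8 gave 0.07 and 0.08.

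Of the group III receptors, Grm4 in the PFC lay between 14.4 and 23.8 CPM after vehicle and between 12.8 and 21.8 CPM after psilocybin at 3 h, a fold of -0.25 (95% interval -0.54 to 0.04, adjusted p = 0.761). The fold at 4 weeks was -0.17 (95% interval -0.46 to 0.13). It was 0.05 among cages 1 to 4 and -0.35 among cages 5 to 8, and ranged from -0.24 to -0.08 over the libraries left out singly. The folds of Grm7 in the PFC were -0.02 and 0.05, and those of Grm8 -0.18 and 0.00. At 3 h the fold of Grm8 was -0.04 without vehicle replicate 5 and -0.10 without psilocybin replicate 7, with a range of -0.25 to -0.04 over the libraries left out singly, and it was 0.09 among cages 1 to 4 and -0.44 among cages 5 to 8 (adjusted p = 0.833 and 1.0). Intervals of all 24 member comparisons lay within -0.57 to 0.43, each for its gene alone and with all libraries.

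In the hypothalamus at 4 weeks all 6 folds were below 0, from -0.17 to -0.07, beside a median of 0.01 over all genes. For Grm3, Grm5, Grm7 and Grm8 those values rested largely on 1 library. Psilocybin replicate 5 held the lowest value of its group for Grm3 (19.2 CPM), Grm5 (35.6 CPM), Grm7 (28.0 CPM) and Grm8 (7.85 CPM), and it also had the highest sum of hypothalamic markers (3121 CPM, beside at most 1225 CPM in the other 3 hypothalamus groups). Without it the folds were -0.18 for Grm2, -0.04 for Grm3, -0.08 for Grm4, 0.01 for Grm5, -0.01 for Grm7 and 0.03 for Grm8, each with an adjusted p of 1.0. The part of those markers in the receptor values was not tested.

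**Figure D3:**
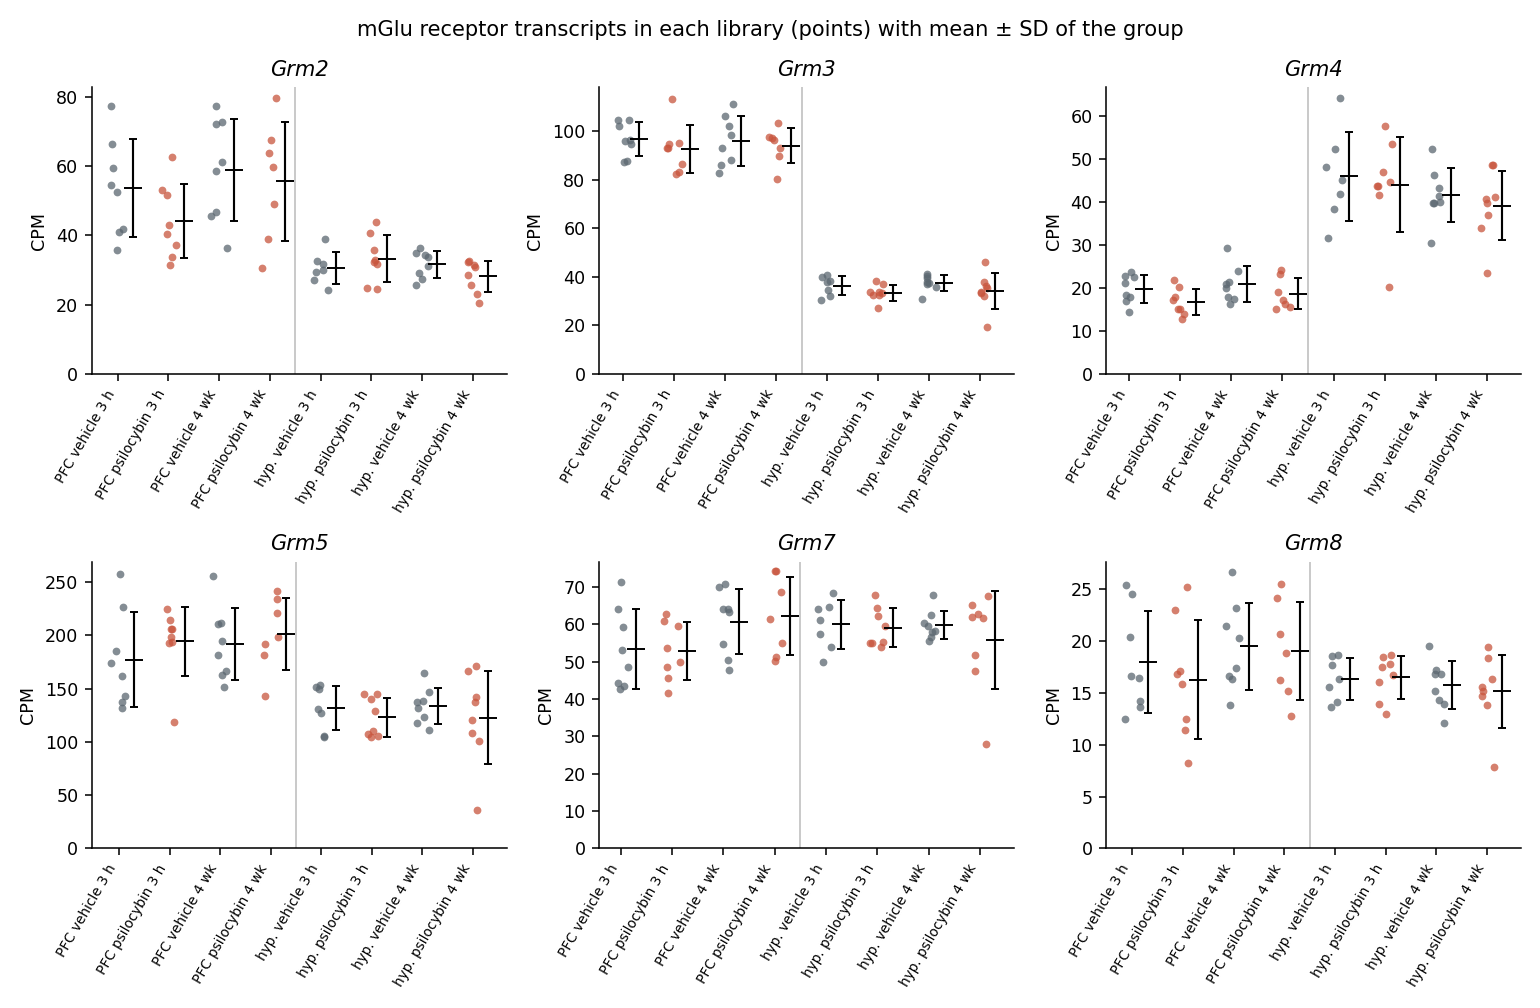
CPM of each gene in every library (points, grey for vehicle and red for psilocybin) by region, treatment and time, with the group mean and SD in black to the right of the points and a vertical line between PFC and hypothalamus. Vehicle and psilocybin overlap in every panel and pair, Grm3 separates the regions fully, and the low hypothalamus points at 4 weeks for Grm5 (35.6 CPM) and Grm7 (28.0 CPM) are 1 library.

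Differences of the psilocybin effect were tested directly. Between regions, 0 members were called at 3 h and 0 at 4 weeks, beside 0.0% of all genes in both. Between times, 0 members were called in the PFC and 0 in the hypothalamus, again beside 0.0% of all genes. With DESeq2 and limma-voom 0 members were called in each, and 0 had an unadjusted p under 0.05. The largest was that of Grm2 at 3 h, where the PFC effect minus the hypothalamus effect was -0.41 (SE 0.212, adjusted p = 1.0). Over all genes, 528, 1269, 585 and 999 had an unadjusted p under 0.05 in these 4 tests, and DESeq2 called 0, 64, 4 and 0.

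The lists of receptor partners also had 0 genes called after psilocybin in each of the 4 comparisons. The lowest adjusted p among them was that of Adcy8, a calcium-stimulated adenylyl cyclase, in the PFC at 3 h (-0.30, adjusted p = 0.327). The median folds of the 6 lists in the PFC at 3 h ran from -0.08 for the Gi/o route to 0.06 for glutamate release, uptake and synthesis, beside -0.01 over all genes.

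The harvests at 4 weeks were then set against those at 3 h within each treatment. These comparisons use the same libraries as those of psilocybin with vehicle and are not independent of them. In the PFC, 0 of 6 members were called after vehicle, beside 4.72% of all genes, and 0 of 6 after psilocybin, beside 5.96%. In the hypothalamus 0 of 6 were called after vehicle, beside 0.685% of all genes, and 0 of 6 after psilocybin, beside 1.16%. DESeq2 called 0 members in all 4, and limma-voom called 2 after psilocybin in the PFC, where it called 19.1% of all genes, and 0 in the others. At an unadjusted p under 0.05, 3 of 6 members passed after psilocybin in the PFC, where 20.4% of all genes did (3875). In the others 0 members passed, beside 3419 genes after vehicle in the PFC, and 1535 after vehicle and 3302 after psilocybin in the hypothalamus. The difference of the vehicle time effects between the regions was called for 0 members with edgeR, DESeq2 and limma-voom and 0 had an unadjusted p under 0.05, beside 0.0369% of all genes called.

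The 3 members were Grm7, Grm2 and Grm8. Grm7, which sits at the active zone of nerve terminals, lay between 41.7 and 62.8 CPM at 3 h (median 51.8) and between 50.1 and 74.3 CPM at 4 weeks (median 61.3) after psilocybin. The groups overlapped, and the fold was 0.25 (SE 0.0992, adjusted p = 0.121), beside 0.18 (SE 0.0961, adjusted p = 0.333) after vehicle. With limma-voom the fold after psilocybin was 0.26 (adjusted p = 0.00227), and in a fit of only the 2 groups it was 0.27 (adjusted p = 0.0134). The fold after vehicle was called without vehicle replicate 5 of the PFC at 3 h (0.28, adjusted p = 0.047), the library with the highest Grm7 of its group (71.2 CPM).

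Grm2 after psilocybin rested on the values already given, 31.6 to 62.7 CPM at 3 h and 30.6 to 79.8 CPM at 4 weeks, which overlapped. Its fold was 0.32 (SE 0.151, adjusted p = 0.204), beside 0.11 (SE 0.146, adjusted p = 0.759) after vehicle. The fold after psilocybin was 0.46 (adjusted p = 0.0456) without psilocybin replicate 7 of the PFC at 3 h and 0.35 (adjusted p = 0.0461) with limma-voom. It was 0.64 (adjusted p = 0.0407) among cages 1 to 4, but 0.06 (adjusted p = 0.962) among cages 5 to 8. After vehicle the cages differed too, with 0.37 (adjusted p = 0.172) among cages 1 to 4 and -0.15 among cages 5 to 8. The difference between the treatments, which is the change of the psilocybin effect with time, was 0.22 (95% interval -0.19 to 0.63), or 0.35 without psilocybin replicate 7 at 3 h (adjusted p = 1.0), and was not called. Grm8 lay between 8.25 and 25.3 CPM at 3 h and between 12.8 and 25.5 CPM at 4 weeks after psilocybin, a fold of 0.27 (SE 0.134, adjusted p = 0.236), or 0.19 (adjusted p = 0.408) without replicate 7.

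In the hypothalamus the folds of 4 weeks against 3 h ran from -0.13 to 0.06 after vehicle and from -0.24 to 0.03 after psilocybin. Without psilocybin replicate 5 at 4 weeks the latter ran from -0.26 to 0.14, with Grm5 at 0.14 in place of 0.00, Grm3 at 0.12 in place of 0.03 and Grm8 at -0.03 in place of -0.13. The lowest was that of Grm2 after psilocybin (-0.24, SE 0.148, adjusted p = 0.388). Among the partners in the PFC, Gna11, a Gq-class alpha subunit, fell by 0.20 after vehicle (adjusted p = 0.0158) and by 0.18 after psilocybin (adjusted p = 0.0438). Glul, the glutamine synthetase of astrocytes, fell by 0.33 (adjusted p = 0.0216) and by 0.40 (adjusted p = 0.00505). Elfn2 fell by 0.44 (adjusted p = 0.00118), Shank2 by 0.31 (adjusted p = 0.0358) and the receptor kinase gene Grk2 by 0.24 (adjusted p = 0.0269) after vehicle. After psilocybin Adcy8 rose by 0.41 (adjusted p = 0.00163) and Rgs2 fell by 0.27 (adjusted p = 0.0488). The called genes were 5 of 70 partner genes after vehicle (7.14%, beside 4.72% of all genes) and 4 of 70 after psilocybin (5.71%, beside 5.96%), shares near the background. Genes called in 1 treatment had folds of the same sign in the other where values are given here, with Elfn2 at -0.28 (adjusted p = 0.0549) and Grk2 at -0.22 (adjusted p = 0.055) after psilocybin. After vehicle Rgs2 was at -0.24 (adjusted p = 0.0899) and Adcy8 at 0.16 (adjusted p = 0.312). For the difference between the treatments edgeR called 0 of the 70, beside 0.0% of all genes. In the hypothalamus 0 partner genes were called in either treatment.

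**Figure D4:**
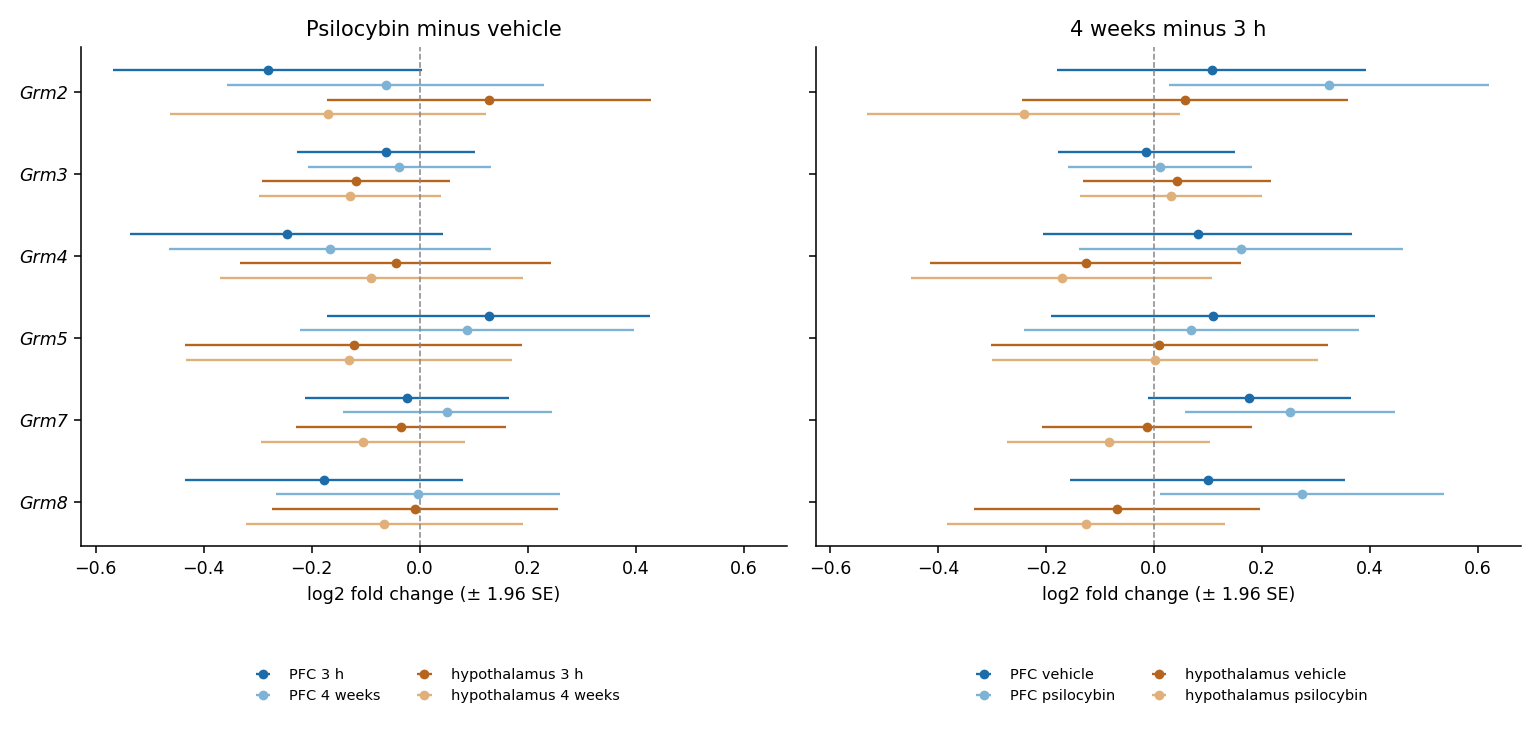
Log2 fold changes of each gene, psilocybin minus vehicle (left) and 4 weeks minus 3 h (right), as points with bars for the approximate 95% interval, coloured by region and by time or treatment. The bars of all 24 psilocybin comparisons reach 0, and of the time comparisons those of Grm2, Grm7 and Grm8 in the PFC after psilocybin (folds of 0.32, 0.25 and 0.27) do not.

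Within a region, the receptors also varied between libraries, and their correlations were computed after group and extraction pool were removed. Between pools, Grm5, Grm7 and Grm8 were lower in the later pool (cages 5 to 8) in all 4 groups of both regions, by a mean of -0.20, -0.30 and -0.50 in the PFC and -0.29, -0.21 and -0.28 in the hypothalamus. Grm2 was lower by -0.37 in the PFC, and Grm3 there was higher by 0.16.

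Over the 15 pairs of genes in each of the 2 regions, 8 of 30 passed a permutation test of Pearson's r at an adjusted p under 0.05, and 5 of 30 did by Spearman's rho (n = 31 libraries each). How many pairs of other genes would pass was not tested, so these counts do not set the receptors apart. Grm5 and Grm7 varied together most. In the hypothalamus their r was 0.93 (permutation p = 1e-05, adjusted p = 0.00015) and their rho 0.786 (permutation p = 1e-05, adjusted p = 0.0003), where 1e-05 is the smallest that 100000 permutations can give. In the PFC their r was 0.667 (permutation p = 8e-05, adjusted p = 0.0008) and their rho 0.473 (permutation p = 0.00767, adjusted p = 0.046). Without the 2 libraries farthest from the median, r was 0.778 and 0.488.

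The other pairs had a lower r than Grm5 with Grm7 in the same region. In the hypothalamus Grm3 and Grm5 had an r of 0.821 (adjusted permutation p = 0.00015) and a rho of 0.583 (adjusted permutation p = 0.0094), with an r of 0.452 without the 2 farthest libraries. Grm2 and Grm4 had 0.549 (adjusted permutation p = 0.00386) and 0.571 (adjusted permutation p = 0.0094), with an r of 0.516 without the 2 farthest. Grm3 with Grm7 (0.74), Grm7 with Grm8 (0.735) and Grm5 with Grm8 (0.695) in the hypothalamus fell to 0.273, 0.383 and 0.266 without the 2 farthest libraries, on which they largely rest. In the PFC, Grm7 and Grm8 had an r of 0.656 that fell to 0.369.

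The reads of a library can favour genes by their G and C content and length, so the correlations were repeated after the trend with both was removed from each library, an alternative chosen after seeing the data. Then 9 pairs passed, of which 6 were among the 8. Grm5 and Grm7 kept an r of 0.829 in the hypothalamus and 0.594 in the PFC, but their rho in the PFC no longer passed (0.425, adjusted permutation p = 0.076). Grm3 with Grm5 and Grm2 with Grm4 in the hypothalamus passed by both r and rho. Grm7 with Grm8 and Grm5 with Grm8 in the hypothalamus dropped to 0.0823 and 0.0219, while Grm2 with Grm8 (0.658), Grm2 with Grm7 (0.502) and Grm4 with Grm8 (0.482) in the PFC newly passed. Without the lowest-weight library of each region 6 pairs passed, of which 5 were among the 8, and Grm5 with Grm7 stood at 0.771 in the hypothalamus. In the PFC that pair then had an r of 0.657, and its rho of 0.422 did not pass (adjusted permutation p = 0.0812).

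**Figure D5:**
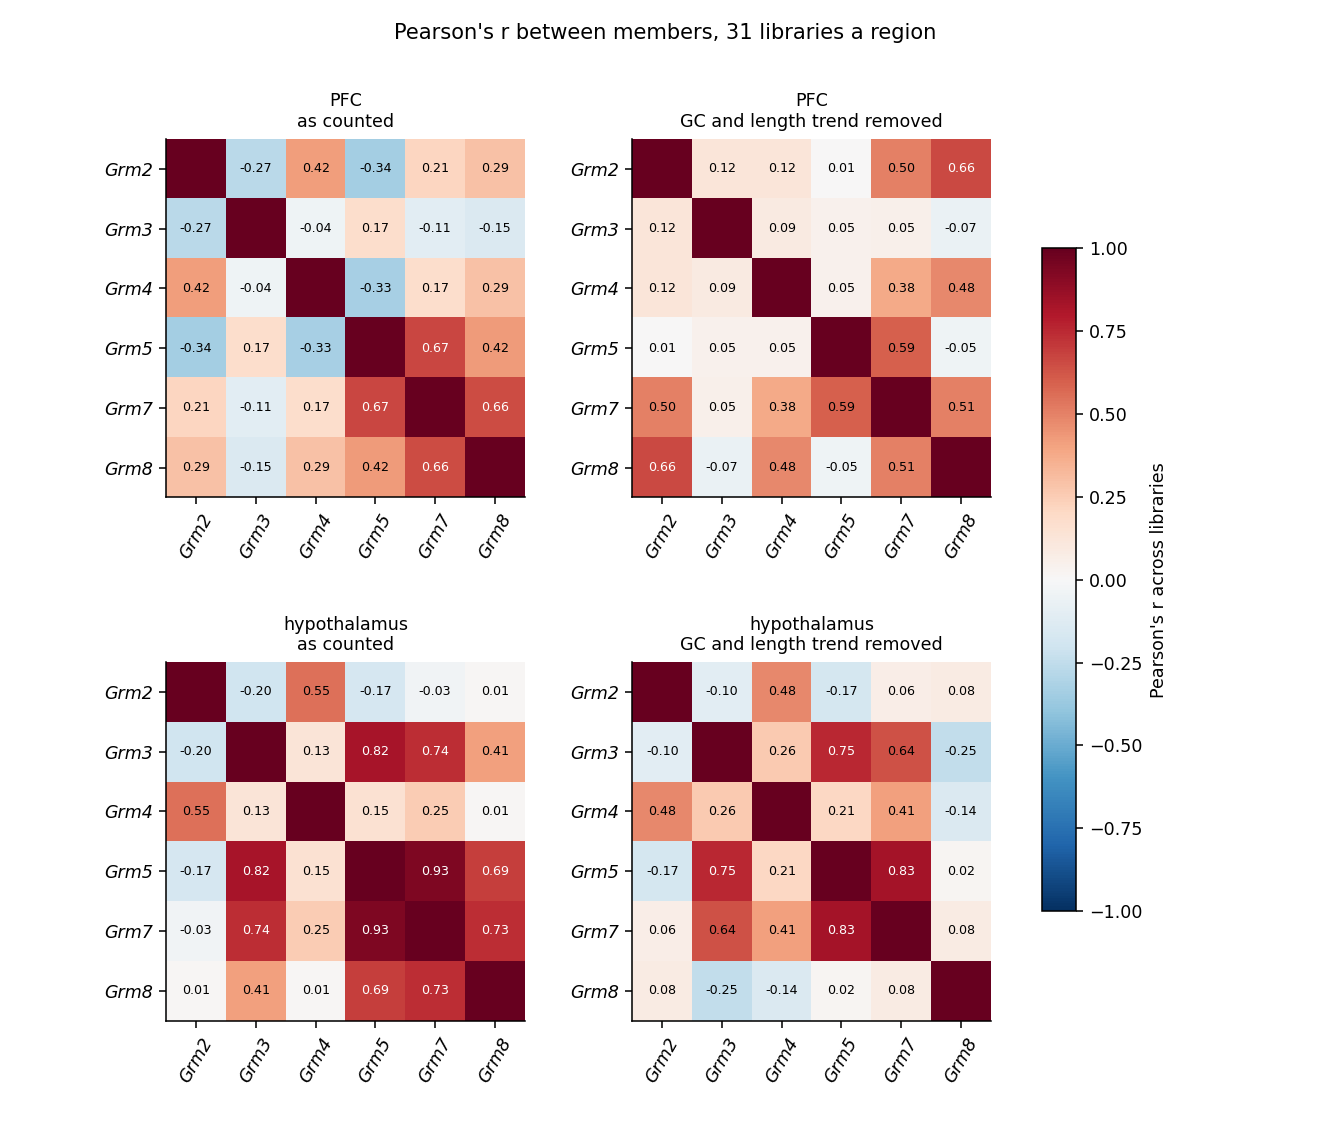
Pearson's r between each pair of genes across the 31 libraries of a region after group and pool were removed, as counted (left) and with the trend on G and C content and gene length removed (right), for the PFC (top) and the hypothalamus (bottom). Grm5 with Grm7 stays high in all 4 maps (0.93 and 0.829 in the hypothalamus, 0.667 and 0.594 in the PFC), and the hypothalamic pairs of Grm8 do not.

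The genes whose library-to-library pattern was most like that of each receptor are given as a description over 31 libraries that share depth and base composition. For Grm2 in the PFC they were Ephb6 (r = 0.936), the adrenergic receptor gene Adra1d (0.909) and Dnm1 (0.903), the dynamin of synaptic vesicle retrieval, and Ephb6 remained at 0.909 after the trend on G and C content and length was removed. Grm2 in the hypothalamus was most like Slc17a6 (0.742), the vesicular glutamate transporter of subcortical neurons, followed by Kcnj12 (0.737) and Pter (0.723). Its closest genes thus differed between the regions.

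Grm3 in the PFC had no close match, with 4930513N10Rik (0.655), Tnnt3 (0.615) and Prkd3 (0.608) first. The former 2 had medians of only 0.729 and 0.0501 CPM, so their r rests on few counts. Once the trend was removed the 3 stood at 0.601, 0.421 and 0.301. In the hypothalamus Grm3 was most like Gnal (0.896), Cnksr2 (0.892) and Zswim6 (0.883), of which Cnksr2 stood at 0.88 and Gnal at 0.564 once the trend was removed. Grm4 was most like Ndst1 (0.781), Rap1gap (0.776) and Dip2a (0.775) in the PFC. In the hypothalamus Lrtm2 (0.906) and Kcnj12 (0.901) were among the 3 most alike.

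For Grm5 the PFC list of Nlgn1 (0.951), 2610002M06Rik (0.931) and Fnip1 (0.929) had an r of 0.151, 0.665 and 0.345 after the correction. In the hypothalamus Dlgap2 (0.967) and Gria2 (0.959) were among the 3 most alike, with Dlgap2, a postsynaptic scaffold gene, at 0.888 after it. Grm7 in the PFC was most like Adam22 (0.918), the sodium channel gene Scn2a (0.918) and Nrxn3 (0.917), which stayed at 0.903, 0.899 and 0.837. Its hypothalamic list was Plxna2 (0.959, then 0.918), Myt1l (0.955) and Grik2 (0.954, then 0.348). Grm8 was most like Armcx2 (0.866, then 0.543), Zfp612 (0.861, then 0.782) and Mfsd6 (0.848, then 0.641) in the PFC. In the hypothalamus it was most like Clcn5 (0.876, then 0.728), Lonrf2 (0.873, then 0.519) and Ankrd6 (0.872, then 0.365).

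Markers of neighbouring tissue and of other cell types moved with some of the receptors in the hypothalamus, those of thalamus with Grm4 most. The 8 thalamic marker genes summed to 215 to 702 CPM in hypothalamus libraries and 55.7 to 103 CPM in PFC libraries. Across the 31 hypothalamus libraries their level had an r of 0.843 with Grm4 (0.777 without the 2 farthest libraries, 0.877 after the correction for base composition and length) and 0.579 with Grm2 (0.627 and 0.545). The hypothalamus library lowest in Grm4, psilocybin replicate 2 at 3 h with 20.3 CPM, also had the lowest thalamic sum of its group (219.6 CPM, beside a group median of 626 CPM). The 10 striatal genes, at 305 to 1019 CPM in hypothalamus libraries, had an r of 0.582 with Grm5, 0.43 with Grm7 and 0.487 with Grm3 there. Without the 2 farthest libraries these were 0.681, 0.393 and 0.401, and after the correction 0.774, 0.533 and 0.534. Several lists had a larger r than those of the striatal genes. Grm7 had an r of -0.636 with 8 oligodendrocyte genes (-0.601 without the 2 farthest libraries) and -0.607 with 7 microglia genes (-0.578), Grm3 of -0.692 with 10 hypothalamic genes (-0.577) and Grm4 of 0.638 with 6 endothelial genes (0.58). With 6 genes of oligodendrocyte precursors r was 0.734 for Grm5, 0.651 for Grm3 and 0.59 for Grm7, but 0.358, 0.234 and 0.00428 without the 2 farthest libraries. The part of these markers in the receptor values, and in the correlations between Grm3, Grm5 and Grm7, was not tested.

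In the PFC, Grm2 ran against 3 of the marker lists most, with an r of -0.703 with 8 astrocyte genes, -0.659 with 7 microglia genes and -0.618 with 10 striatal genes over 31 libraries. Those lists summed to 4954 to 9454 CPM, 390 to 706 CPM and 330 to 2459 CPM. With the other 9 lists, cortical excitatory neurons apart, r for Grm2 lay between -0.465 (thalamus) and 0.176 (endothelium). Grm7 had an r of -0.756 with the astrocyte genes, -0.499 without the 2 farthest libraries and -0.819 after the correction for base composition and length. For Grm8 r was -0.609 with the astrocyte genes and -0.637 with the microglia genes (-0.614 and -0.571 without the 2 farthest libraries). With 10 markers of cortical excitatory neurons r was 0.788 for Grm8, 0.704 for Grm7, 0.618 for Grm5 and 0.08 for Grm2. Without the 2 farthest libraries these were 0.677, 0.457, 0.411 and 0.235, and after the correction 0.489, 0.62, 0.511 and 0.26. Grm3 had an r of 0.391 with the astrocyte genes in the PFC and 0.244 in the hypothalamus, and of 0.203 and 0.0209 without the 2 farthest libraries. The part of cell composition in the receptor values was not tested.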

How the data were processed

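Poly-A RNA from hypothalamus and PFC was sequenced in paired-end reads of 52 bases in 64 samples. Per the paper's methods, the authors used bcl2fastq 2.20.0, STAR 2.7.2b on GRCm38 and featureCounts 1.6.2 with GENCODE M25, and deposited whole-number counts per gene, neither normalized nor filtered. Groups, cages and pools came from the labels. Libraries with at least 1000000 counts were kept. The authors also left out 1 sample for wound healing and immune genes, which the sources used here do not name, so it was not left out here. The counts were fitted in edgeR 4.0.16 (R 4.3.3) with filterByExpr (minimum count 10), TMM, group and extraction pool, and a robust quasi-likelihood test over 18971 genes. CPM used TMM-scaled totals. TPM was computed from the counts and the exon length in the table. limma 3.58.1 voom with quality weights (after the authors' method, animal as block) and DESeq2 1.42.0 were alternatives. Single values were tested by permutation. Members and lists were chosen with earlier results of these data known. Named genes were all members, the 3 most alike genes per member and region, up to 3 genes per list with the smallest p, and Htr2a. Some named genes are not reported here.

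Samples with the same treatment, time and cage number were taken to come from 1 mouse, and the counts within mice rest on that pairing. Over the 30 mice the deviations of the 2 regions of a mouse had a mean correlation of 0.0854 (-0.209 to 0.381). No pair of libraries within a group agreed within counting noise (lowest chi-square per degree of freedom 3.85 in 210 pairs). Gene symbols matched for 55141 of 55401 genes, from GENCODE M21. Tests were tried on simulated counts.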

Additional observations from a re-analysis of the deposited data

Results flagged for a closer look

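Of the 48 sets of 1 gene in 1 group, 3 held a library far from the others of its group by Dixon's test, about what chance gives at 1 in 20. Grm3 was highest in psilocybin replicate 6 of the PFC at 3 h (113 CPM, the next at 95.4 CPM). Grm4 was lowest in psilocybin replicate 2 of the hypothalamus at 3 h (20.3 CPM, the next at 41.6 CPM). Grm5 was lowest in psilocybin replicate 7 of the PFC at 3 h (118 CPM, the next at 193 CPM), the PFC library with the lowest quality weight.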

How the results depend on the processing

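The number of members called stayed within 1.5 times its reported value in 537 of 542 alternative values over 16 results, and 3210 of 3222 values of single members kept their call, none with a called direction reversed. Outside the region comparison 0 members were called in the main fit, and most alternatives only left out 1 library. These totals therefore say little of how firm the results are. After vehicle in the PFC, 4 weeks against 3 h gave 0 to 1 members called when 1 library was left out (Grm7 without replicate 5 at 3 h). After psilocybin in the PFC it gave 2 with limma-voom, 1 among cages 1 to 4, 1 in a fit of only its groups, and 0 to 1 when 1 library was left out (Grm2 without replicate 7 at 3 h). The cause was not tested. With the cage number as a replicate block, 5 members were called between regions, 0 in every other comparison, and with the animal as a block 5 were called between regions, so no member's call changed. Of the correlations, 9 pairs passed with the cage block, the 8 reported and Grm2 with Grm4 in the PFC (adjusted permutation p = 0.0081, from 0.0593). Within a region cage numbers name different mice, and same-cage libraries did not deviate together once the pool was removed (mean r -0.0415 in the PFC and -0.0236 in the hypothalamus). Grm8 between regions also lost its call with DESeq2-type size factors (adjusted p = 0.0619) and with no filter on low counts (adjusted p = 0.137). Between regions, 10386 to 18102 genes in all were called over the alternatives. After psilocybin in the PFC at 3 h it was 0 to 1232.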
